A study of Homo sapiens with 59 samples.

Results

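The 78 mRNAs described here encode mitochondrial ribosomal proteins, 49 of the large subunit (symbols that begin with MRPL) and 29 of the small subunit (symbols that begin with MRPS), of 34622 gene rows in the deposited tables. They were chosen by symbol alone, as MRPL or MRPS with a number and at most 1 letter from A to C, and a table mean of 10 or more normalised counts in all 7 tables. All 78 genes with such a symbol passed that minimum. The lowest group means among them were 146 normalised counts in restricted cells and 105 in control cells, so no member was near the minimum.

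The cells were Jurkat, an established human T cell leukaemia line, and the bulk RNA was collected on day 3. The groups were cells grown with histidine, methionine, phenylalanine, tryptophan, isoleucine, leucine or valine lowered to 25%, with 5 libraries each. Their references were histidine, methionine, phenylalanine and tryptophan control cells, with 5 libraries each, and 1 branched-chain control group of 4 libraries that served isoleucine, leucine and valine. All groups were the same line and time point, and the labels name no other treatment. The 59 libraries are numbered within a group, and the labels do not say that they came from separate cultures, so each p-value reflects how far these libraries scatter, and that scatter may be technical.

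Mitochondria keep a small genome whose mRNAs encode core subunits of the respiratory chain, and these are translated inside the organelle by a ribosome of its own. Its rRNAs are transcribed from mitochondrial DNA, whereas all of its proteins are encoded in the nucleus, made on cytosolic ribosomes and imported. Some of the proteins have a counterpart in the bacterial ribosome, and others are specific to mitochondria. MRPS30 and MRPS18A carry small-subunit symbols but sit in the large subunit, and the product of MRPS36 is known as a component of the 2-oxoglutarate dehydrogenase complex.

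Nuclear genes for mitochondrial proteins are known to be controlled in part by NRF1, GABP (an ETS-family factor) and YY1, and the start regions of the members were searched for short sequences that these factors bind. RefSeq windows from 250 bases before to 50 bases after the annotated start (GRCh38.p14) were at hand for 58 of the 78 members. The YY1 core AAGATGGC, on either strand, occurred in 18 of the 58 (31%), against 3.53% of 22199 windows of protein-coding genes and 2.89% of all 35116 windows. The ETS/GABP core CCGGAAG occurred in 25 (43.1%), against 12.8% of protein-coding and 10.3% of all windows. CGCATGCG, the NRF1 core, was in 3 (5.17%, against 2.49% of protein-coding windows), the E box CACGTG in 5 (8.62%, against 8.34%) and the ATF4-type sequence TGATGNAA in 1 (1.72%, against 2.69%). In 6 windows both the YY1 and the ETS/GABP core occurred, at sites that did not overlap, and 21 windows had neither. Of the 19 matches to the YY1 core, 15 lay within the first 40 bases of the transcript and on its own strand, starting at bases 7 to 36. The 30-base stretches below are from members whose values are given further on, to show how alike these sites are in genes that moved in different ways. They are written 5′ to 3′ on the strand of the gene, with the core in capitals, and a position counts from 1 at the annotated start or from −1 before it.
MRPS30, YY1 core from base 14, chr5:44808949-44808978, + strand: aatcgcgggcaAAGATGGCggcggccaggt
MRPS18A, YY1 core from base 10, chr6:43687764-43687793, − strand: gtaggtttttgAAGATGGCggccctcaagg
MRPL46, YY1 core from base 9, chr15:88467362-88467391, − strand: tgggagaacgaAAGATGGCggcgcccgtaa
MRPL20, YY1 core from base 16, chr1:1407260-1407289, − strand: ccgacccgggcAAGATGGCagcggcgctgc
MRPS10, YY1 core from base 10, chr6:42217834-42217863, − strand: tcgggaccggcAAGATGGCggcgcggacag
MRPS27, YY1 core from base 17, chr5:72320206-72320235, − strand: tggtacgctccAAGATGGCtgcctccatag
MRPL45, YY1 core from base 14, chr17:38297170-38297199, + strand: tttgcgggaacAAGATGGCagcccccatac
MRPL27, ETS/GABP core from base −8, chr17:50373174-50373203, − strand: acttttcgagaCCGGAAGtgagtgatcgaa
MRPL58, ETS/GABP core from base −8, chr17:75012651-75012680, + strand: ggaagcgcccgCCGGAAGcagtcgcaagac
MRPL20, ETS/GABP core from base −21, chr1:1407296-1407325, − strand: caggggctgacCCGGAAGcgctcgtgacca
A match says only that the letters are in the window, and binding was not measured. The YY1 core also contains the letters ATG, and whether matches within the transcript cover the start codon of the protein was not examined.

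The values are counts that the authors had normalised separately for each amino acid, so a level is compared within its own table. A library summed to between 14.9 and 20.5 times 1000000 normalised counts. Of 8 T cell genes, CD3D, CD3E, CD3G, TRAC, TRBC1 and LCK had at least 1635 normalised counts in every library, while CD4 ranged from 1.61 to 165 and CD28 from 8.58 to 288. In 4 libraries the mean log2 of cytosolic ribosomal protein mRNAs lay over 0.5 above the rest of the group, namely phenylalanine restricted 2, phenylalanine control 1, valine restricted 2 and branched-chain control 1. Results of phenylalanine, isoleucine, leucine and valine are therefore also given without them, an omission chosen after the data had been seen. Tests were made with limma on log2(normalised count + 1), two-sided and adjusted by Benjamini-Hochberg over all genes of a table with a mean of at least 10, and a gene was called at an adjusted p under 0.05. Members are called higher or lower in restricted cells relative to their own control. When libraries were rescaled to equal totals, the log2 fold change of the median gene became 0.27 with tryptophan (0.03 as deposited), 0.15 with methionine (0.02), 0.15 with phenylalanine (0.03) and 0.13 with valine restriction (0.01). Counts of members called in a comparison are given under that scaling where they differ.

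Summed over both subunits, mitochondrial ribosomal protein mRNA made up a larger part of the library in methionine-restricted cells and a smaller part in tryptophan-restricted cells than in the matching controls. This share, in normalised counts per 1000000 of the library (ppm), does not depend on the scaling between libraries. It was 4958 ± 261 ppm in methionine-restricted cells and 3674 ± 154 in methionine controls (SD, n = 5 each), with 4502 as the lowest restricted and 3854 as the highest control library. In tryptophan-restricted cells it was 4179 ± 98.4 and in tryptophan controls 5670 ± 218 (SD, n = 5 each), with 4281 as the highest restricted and 5368 as the lowest control library. The tryptophan controls had the highest mean of the 5 control groups, the other control means lying between 3674 and 4182 ppm, and the tryptophan-restricted mean fell within that span. Histidine-restricted cells had 3930 ± 91.8 and their controls 3680 ± 187 ppm, with ranges that overlapped through histidine control 5 (3933 ppm, against 3447 to 3790 in the other controls and 3833 to 4046 in restricted libraries). Histidine control 5 was also high in cytosolic ribosomal protein mRNA (log2 0.41 above the other controls, under the cutoff of 0.5). Without it 26 members were higher and 12 lower with histidine restriction, where 15.7% of all genes were higher and 11.9% lower. Valine-restricted cells had 5020 ± 495 ppm (SD, n = 5) and branched-chain controls 4174 ± 687 in the same table (SD, n = 4). The valine-restricted range was 4679 to 5779 ppm, overlapped only by branched-chain control 1 (5196 ppm, against 3728 to 3941 in the other controls). With phenylalanine, isoleucine and leucine restriction the ranges overlapped as well.

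The summed large-subunit counts were 1.78 to 1.88 times the small-subunit counts as a mean of the 7 restricted groups, and 1.74 to 1.89 times as a mean of the 5 control groups. Within a table this ratio, formed by symbol, separated the libraries in 3 comparisons. It was lower with histidine restriction (1.76 to 1.85 in restricted and 1.85 to 1.96 in control libraries, the closest values being 1.850 and 1.854), and higher with phenylalanine (1.855 to 1.91 in restricted and 1.69 to 1.853 in control libraries) and leucine restriction (1.82 to 1.91 in restricted and 1.70 to 1.80 in control libraries). No test was made of the ratio. MRPS30 and MRPS18A counted as small subunit in it, and both were higher with histidine restriction (log2 0.44 and 0.40). No ratio with these moved to the large subunit is given, so the separations are stated for the symbols only. In tryptophan-restricted cells the large subunit had 2675 ± 73.7 and the small subunit 1504 ± 42.6 ppm, against 3677 ± 137 and 1993 ± 82.5 in controls. Because the libraries are of bulk RNA, fewer cells with an mRNA and less of it per cell cannot be told apart.

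**Figure D1:**
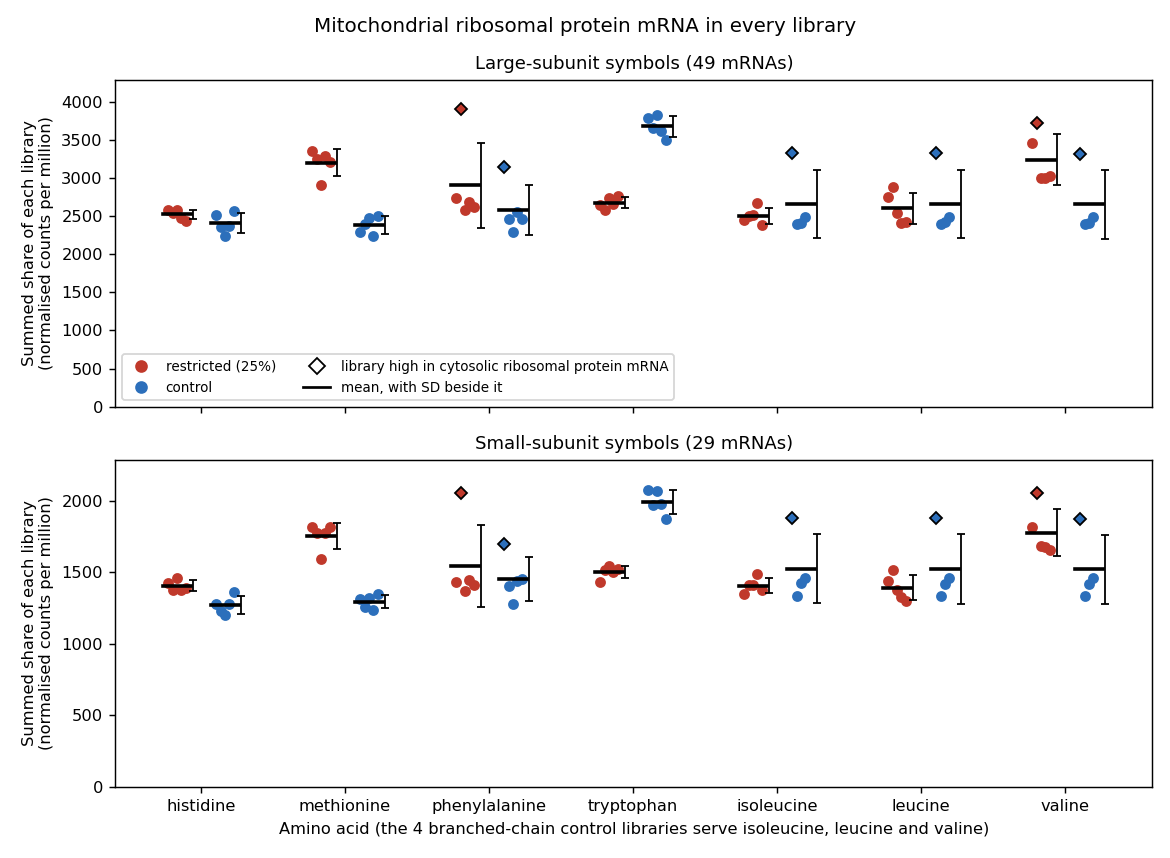
Summed normalised counts (ppm of the library) of the 49 large-subunit (top) and 29 small-subunit mRNAs (bottom) in every library, by amino acid, restricted (red) left of control (blue). Lines are means with SD, and diamonds mark the libraries high in cytosolic ribosomal protein mRNA. The 5 methionine-restricted libraries lie above their 5 controls and the 5 tryptophan-restricted libraries below theirs.

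Tryptophan restriction had the most members called lower of the 7 comparisons. Of the 78 members, 66 were lower in tryptophan-restricted cells, 41 of 49 of the large and 25 of 29 of the small subunit, where 27.7% of all tested genes were lower. No member was called higher by limma, where 23.6% of all tested genes were higher. At an unadjusted p under 0.05, 1 large-subunit and 0 small-subunit members were higher, and no other tool was run. The median log2 fold change was -0.60 for the large and -0.64 for the small subunit, against 0.03 for all tested genes. With libraries scaled to equal totals 54 of the 66 stayed lower, where 16.8% of all genes were lower, and MRPL40, MRPL41, MRPL48 and MRPS16 were higher, where 41.1% were higher. Under that scaling the median of the members was -0.37, against 0.27 for all genes. For 59 of the 66 as deposited, every restricted library lay below every control library. No such count over all genes is given, so this number has nothing to be set against. Both kinds of protein took part, with 27 of 30 large-subunit members that have a bacterial counterpart and 14 of 19 that are mitochondria-specific, and 14 of 16 and 11 of 13 in the small subunit.

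The largest falls in the small-subunit symbols were those of MRPS30, MRPS11 and MRPS18A. MRPS30, a protein of the large subunit in spite of its symbol, had 542, 542, 586, 571 and 532 normalised counts in tryptophan-restricted libraries, against 2029, 1981, 1918, 1932 and 1827 in controls. The groups lay far apart, 3.49-fold lower with restriction (log2 -1.80, SE 0.059, adjusted p = 6.79e-11). It is the tryptophan controls that stand apart from the other tables, whose control means for MRPS30 ran from 508 to 726, although tables were normalised separately. MRPS11, which forms part of the platform of the small subunit, had 168, 59.2, 191, 172 and 148 normalised counts in restricted libraries, against 540, 391, 649, 391 and 455 in controls. It was 3.45-fold lower (log2 -1.79, SE 0.267, adjusted p = 6.36e-05), with wider spread within the groups. MRPS18A, another large-subunit protein, had 745 to 930 normalised counts in restricted and 1657 to 1895 in control libraries and was 2.06-fold lower (adjusted p = 2.62e-08).

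In the large subunit the largest falls were those of MRPL9, MRPL36 and MRPL27, which all have bacterial counterparts. MRPL9 had 1244, 1284, 1306, 1280 and 1359 normalised counts in restricted libraries, against 3580, 3376, 3474, 3280 and 3144 in controls. No restricted library came near a control, and MRPL9 was 2.60-fold lower (log2 -1.38, SE 0.054, adjusted p = 2.62e-10). MRPL36 had 219 to 267 in restricted and 564 to 617 in control libraries, 2.49-fold lower (adjusted p = 1.48e-08). MRPL27, whose bacterial counterpart lies at the peptidyl transferase centre, had 285 to 357 and 728 to 801 normalised counts and was 2.39-fold lower (adjusted p = 1.36e-08).

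Members with known roles beside plain structure fell as well. MRPL12, a stalk protein that also binds the mitochondrial RNA polymerase, had 1280, 1264, 1416, 1261 and 1196 normalised counts in tryptophan-restricted libraries, against 2130, 2285, 2662, 2312 and 2322 in controls (log2 -0.87, SE 0.069, adjusted p = 1.29e-07). MRPL44, a protein related to ribonuclease III, was 2.00-fold lower (adjusted p = 2.89e-08). MRPL58, a peptidyl-tRNA hydrolase that releases stalled chains, was 1.48-fold lower (log2 -0.57, adjusted p = 5.12e-05). MRPS12, a protein of the decoding centre, had a log2 fold change of -0.74, and MRPS18B and MRPS18C of -0.87 and -0.56.

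Methionine restriction went mostly the other way. Of the 78 members 42 were higher in methionine-restricted cells, 24 of 49 of the large and 18 of 29 of the small subunit, where 27.8% of all tested genes were higher. Another 7 were lower, 4 large and 3 small, where 25.4% of all tested genes were lower. The median log2 fold change was 0.26 for the large and 0.41 for the small subunit, against 0.02 for all tested genes. With equal totals 54 were higher, where 34.6% of all genes were higher, and 4 were lower, where 20.6% were lower. In the large subunit 13 of the 19 mitochondria-specific members and 11 of the 30 with a bacterial counterpart were higher, with median log2 fold changes of 0.48 and 0.16.

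MRPL1, MRPL20 and MRPL58 had the largest rises of the large subunit. MRPL1, whose bacterial counterpart forms the stalk beside the tRNA exit site, had 619, 606, 557, 660 and 594 normalised counts in methionine-restricted libraries, against 186, 172, 205, 185 and 201 in controls. It was 3.19-fold higher (log2 1.67, SE 0.093, adjusted p = 7.09e-09) and no restricted library came near a control. MRPL20, whose bacterial counterpart is needed early in assembly of the large subunit, had 2246, 2092, 1873, 2334 and 2675 in restricted libraries, against 693, 850, 965, 728 and 910 in controls, and was 2.71-fold higher (SE 0.11 on the log2 scale, adjusted p = 1.19e-07). The release factor MRPL58 had 825, 666, 615, 805 and 638 in restricted libraries, against 249, 302, 282, 274 and 341 in controls, and was 2.44-fold higher (log2 1.29, adjusted p = 5.12e-07). All 3 were therefore higher under methionine restriction and lower under tryptophan restriction, each against its own control.

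In the small subunit MRPS11, MRPS6 and MRPS10 rose most. MRPS11 had 300, 376, 256, 158 and 322 normalised counts in methionine-restricted libraries, against 57.0, 60.0, 157, 121 and 131 in controls. The lowest restricted library was just above the highest control, and MRPS11 was 2.78-fold higher (log2 1.48, SE 0.301, adjusted p = 0.000886). MRPS10, a protein of the head of the subunit, had 2151 to 2443 in restricted and 985 to 1248 in control libraries, 1.98-fold higher (adjusted p = 1.32e-07). MRPS12 was 1.94-fold higher (adjusted p = 4.42e-07), and MRPS18A was higher by log2 0.24 (adjusted p = 0.00966).

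MRPS11 and MRPL46 lie head to head on chromosome 15, with 33 bases between MRPL46 (88459476 to 88467419, minus strand) and MRPS11 (88467453 to 88480773, plus strand) in GENCODE release 29 on GRCh38. MRPL46, a mitochondria-specific protein of the large subunit, had 879, 819, 720, 869 and 872 normalised counts in methionine-restricted libraries, against 429, 350, 379, 335 and 406 in controls (log2 1.13, adjusted p = 2.74e-07). In tryptophan-restricted libraries it had 576, 594, 608, 597 and 590, against 1216, 1072, 1064, 1095 and 968 in controls (log2 -0.86, adjusted p = 1.36e-07). Both neighbours were thus higher with methionine and lower with tryptophan restriction, and they are among 34 of the 78 members with that pattern. MRPL46 shares 724 exon bases on its own strand with AC013489.1, annotated as protein-coding.

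The 7 mRNAs that were lower in methionine-restricted cells were also among those lower in tryptophan-restricted cells. They included MRPS27, MRPL45 and MRPL10, which are described below across all comparisons, and MRPS21, at log2 -0.66 with methionine. With equal totals MRPL2, MRPL11 and MRPS9 were no longer called with methionine, nor MRPS21 with tryptophan (log2 0.06). Over both comparisons 34 members were higher with methionine and lower with tryptophan restriction, 25 were lower with tryptophan restriction and not called with methionine, 8 were higher with methionine restriction and not called with tryptophan, and 4 were called in neither. Of 16094 genes tested in both tables, 9.1% were higher with methionine and lower with tryptophan, 9.53% lower in both, 9.79% lower with tryptophan and not called with methionine, 11.5% higher with methionine and not called with tryptophan, and 25.2% called in neither.

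**Figure D2:**
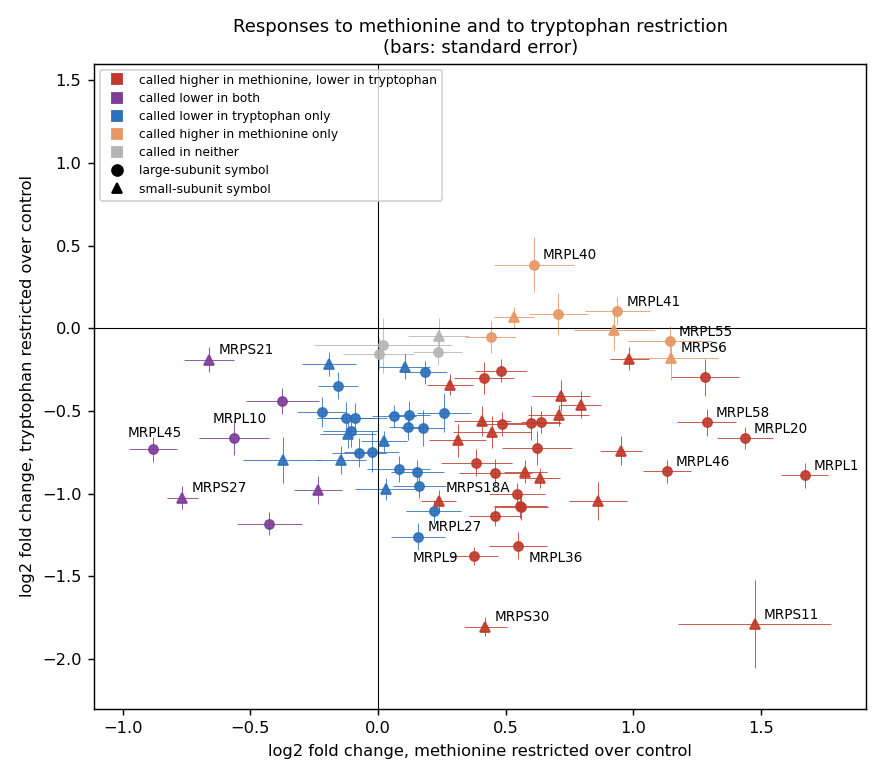
Log2 fold change of each member in methionine restriction (horizontal) and tryptophan restriction (vertical), each over its own control, with bars of 1 SE and colours for the calls. The 34 red points are higher with methionine and lower with tryptophan restriction, the 7 purple ones lower in both, with MRPS11 and MRPL1 farthest to the lower right.

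The difference between the methionine and tryptophan responses was tested as an interaction over the 4 groups. It was called for 67 of the 78 members, positive for 66 and negative for 1, where 53.6% of all genes tested in both tables were called. The median difference was 0.93 on the log2 scale. MRPS11 had the widest difference (log2 3.26, adjusted p = 1.73e-06), followed by MRPL1 (2.56, adjusted p = 4.84e-14) and MRPS30 (2.22, adjusted p = 3.37e-14), and MRPL20 had 2.10 (adjusted p = 1.30e-11). Histidine and tryptophan responses differed for 62 members, 61 of them positive, where 43.3% of all genes were called. Phenylalanine and tryptophan responses differed for 42, all positive, where 32.6% of all genes were called.

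Histidine restriction gave a mixed picture that leaned upward in the small subunit. There 14 of 29 members were higher and 6 lower, and in the large subunit 10 of 49 were higher and 6 lower, where 15.6% of all tested genes were higher and 12.3% lower. The median log2 fold change was 0.27 for the small and 0.05 for the large subunit, against -0.01 for all tested genes. With MRPS30 and MRPS18A counted in the large subunit, the small-subunit median was 0.17. With equal totals 27 members were higher, where 19% of all genes were higher, and 11 were lower, where 10.8% were lower. MRPS15, which binds the small-subunit rRNA early in bacteria, had 1269, 1265, 1257, 1285 and 1219 normalised counts in histidine-restricted libraries, against 760, 812, 779, 794 and 864 in controls, 1.57-fold higher (log2 0.65, SE 0.063, adjusted p = 7.04e-06). MRPL15 had 405, 560, 418, 481 and 448 in restricted libraries, against 304, 346, 256, 270 and 326 in controls, and was 1.54-fold higher (adjusted p = 0.00146). Both genes had complete separation between the groups.

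Among members whose libraries separated, MRPL13, MRPS2 and MRPL53 had the largest falls with histidine restriction. MRPL13 had 200, 193, 182, 240 and 237 normalised counts in restricted libraries, against 381, 411, 428, 400 and 544 in controls. It was 2.05-fold lower (log2 -1.03, SE 0.123, adjusted p = 3.92e-05), and its response differed from that to methionine restriction by -1.01 (interaction, adjusted p = 4.90e-05) and to phenylalanine restriction by -1.50 (adjusted p = 0.000373). MRPL53, a mitochondria-specific protein, had 307 to 394 in restricted and 462 to 762 in control libraries, 1.58-fold lower (adjusted p = 0.00182). It shares 608 exon bases on its own strand with CCDC142, which was not called (log2 0.21, adjusted p = 0.326). The histidine and methionine responses differed for 35 members, 29 with the lower value under histidine, where 34.4% of all genes were called.

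**Figure D3:**
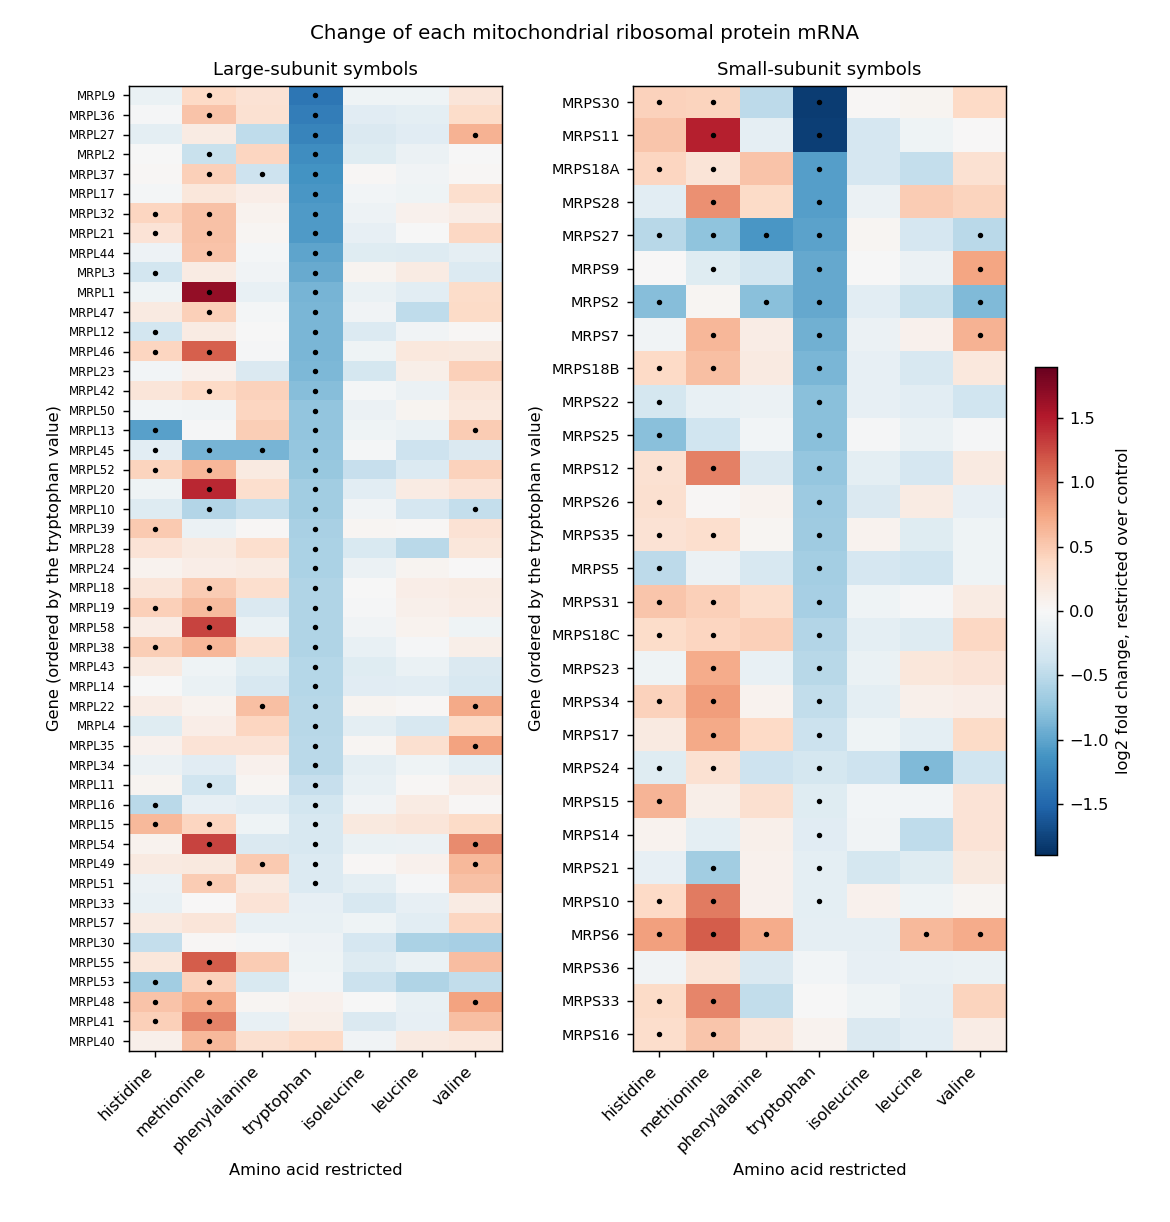
Log2 fold change, restricted over control, of the 49 large-subunit (left) and 29 small-subunit mRNAs (right) in the 7 comparisons, ordered by the tryptophan value. Dots mark calls. The tryptophan column is blue in nearly all rows, with 66 dots, and MRPS27 is blue with a dot in 5 columns.

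Phenylalanine restriction gave few calls among these mRNAs over all libraries, near the share of all tested genes in both directions. In the large subunit 2 were higher and 2 lower, and in the small subunit 1 was higher and 2 were lower, where 4.11% of all tested genes were higher and 6.09% lower. The medians were 0.03 and 0.06 against 0.03 for all tested genes, and they turned to -0.09 and -0.11 without phenylalanine restricted 2. Without phenylalanine restricted 2 and phenylalanine control 1 the calls were 13 higher and 14 lower, all 7 earlier ones included, where 12.2% of all genes were higher and 14.2% lower. With equal totals 8 were higher, where 9.03% of all genes were higher, and 4 lower, where 4.45% were lower. The summed share of the members was 5954 ppm in phenylalanine restricted 2, against 3947 to 4178 in the other restricted libraries, and 4849 in phenylalanine control 1, against 3574 to 3996 in the other controls. Cytosolic ribosomal protein mRNA was high in the same libraries, at 99800 and 127691 ppm, and its part in the result was not tested.

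MRPL49, a mitochondria-specific protein, had 2034, 2351, 1985, 2064 and 1954 normalised counts in phenylalanine-restricted libraries, against 1324, 1458, 1425, 1589 and 1540 in controls (log2 0.50, SE 0.089, adjusted p = 0.00398). Its exons overlap those of SYVN1 and FAU on the opposite strand, and SYVN1 was lower (log2 -0.82, adjusted p = 5.69e-05). MRPL22, which lines the exit tunnel in bacteria, had 1237, 2177, 1096, 1297 and 1200 in restricted libraries, against 905, 963, 841, 995 and 862 in controls (log2 0.57, adjusted p = 0.045). That call was lost when any library other than phenylalanine restricted 2, restricted 3 or control 1 was left out, at an adjusted p of up to 0.0989. The histidine and phenylalanine responses differed for 11 members, where 9.66% of all genes were called, and the methionine and phenylalanine responses for 21, where 29.4% were called. Without the 2 libraries these counts were 24 and 38, and the share of all genes called in those refits is not given. In the phenylalanine comparison itself, the same omission raised that share from 10.2% to 26.5%.

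The branched-chain comparisons share their 4 control libraries, so their values are set side by side. Branched-chain control 1 had 5204 ppm of the members' mRNA in the isoleucine table, against 3735 to 3951 in the other 3 controls, and 126835 ppm of cytosolic ribosomal protein mRNA, against 71806 to 75448. Valine restricted 2 had 5779 ppm, against 4679 to 5271 in the other valine-restricted libraries. Over all libraries, 7 large and 3 small-subunit members were higher in valine-restricted cells, and 1 large and 2 small were lower, where 5.13% of all tested genes were higher and 7.36% lower. The median log2 fold change was 0.21 for the large and 0.16 for the small subunit, against 0.01 for all tested genes, and 0.41 and 0.40 without branched-chain control 1 alone. Without valine restricted 2 and branched-chain control 1, 37 members were higher and 3 lower, with a median of 0.31, where 13.5% of all genes were higher and 11.5% lower, and all 13 earlier calls were kept. With equal totals 18 were higher, where 10.5% of all genes were higher, and 1 lower, where 5.96% were lower.

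MRPL35 and MRPS9 had the largest rises with valine restriction among members whose libraries separated. MRPL35 had 1105, 1073, 958, 1032 and 987 normalised counts in valine-restricted libraries, against 785, 573, 499 and 589 in branched-chain controls, 1.71-fold higher (log2 0.77, SE 0.140, adjusted p = 0.00406). MRPS9 had 2064, 1888, 1631, 1779 and 1770 in restricted libraries, against 1284, 937, 1051 and 1088 in controls, 1.68-fold higher (adjusted p = 0.0023). Both proteins have bacterial counterparts, and every restricted library lay above every control. MRPL49 was 1.53-fold higher with valine restriction (log2 0.61, adjusted p = 0.00266), with SYVN1 again lower (log2 -1.47, adjusted p = 2.02e-05). MRPL13 was 1.40-fold higher (adjusted p = 0.0244), a call that ended without valine restricted 1, 3 or 5 or branched-chain control 3, 4 or 5 (adjusted p up to 0.0669).

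Leucine restriction gave 2 calls, MRPS6 higher and MRPS24 lower, and none in the large subunit, where 3.41% of all tested genes were higher and 4.33% lower. In limma 0 large-subunit members were higher and 6 lower at an unadjusted p under 0.05, and no other tool was run. MRPS24 had 769, 1006, 852, 784 and 768 normalised counts in leucine-restricted libraries, against 2835, 1142, 1096 and 1371 in controls, the first of which is branched-chain control 1. Its log2 fold change was -0.84 (SE 0.233, adjusted p = 0.0467), and -0.53 without that control (adjusted p = 0.013). The call ended without leucine restricted 1, 3, 4 or 5 or branched-chain control 3 or 5, at an adjusted p of up to 0.105. Nearest to a call in the large subunit were MRPL45 (log2 -0.39, adjusted p = 0.0505) and MRPL28 (log2 -0.52, adjusted p = 0.0608). Without branched-chain control 1, 8 members were called, 6 higher and 2 lower, where 5.2% of all genes were higher and 4.92% lower. The large-subunit median was -0.08 over all libraries and 0.14 without that control. With equal totals 1 member was higher, where 3.79% of all genes were higher, and 3 were lower, where 4.07% were lower.

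With isoleucine restriction 0 of the 78 members were called higher or lower by limma, where 0% of all tested genes were called in either direction. At an unadjusted p under 0.05 there were 0 in the large and 1 in the small subunit, and no other tool was run. The medians were -0.12 and -0.15. Without branched-chain control 1 they were 0.07 and 0.06, again with 0 calls. The smallest unadjusted p-values belonged to MRPL44 (log2 -0.23), MRPL28 (-0.29), MRPS16 (-0.27) and MRPS21 (-0.34), each with an adjusted p of 0.797.

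Across comparisons, 44 members were called in both directions and 4 in none (MRPL30, MRPL33, MRPL57 and MRPS36, of which MRPL57 and MRPS36 were higher with methionine under equal totals). Of 15513 genes tested in all 7 tables, 23.8% were called in both directions and 17.7% in none. MRPS6, whose gene spans chr21:34073224-34143034 on the plus strand (GRCh38), was the member most often higher, in 5 comparisons. It had 632, 634, 628, 652 and 653 normalised counts in histidine-restricted libraries, against 357, 368, 358, 401 and 375 in controls (log2 0.78, SE 0.074, adjusted p = 5.71e-06). In methionine-restricted libraries it had 721, 734, 495, 706 and 827, against 296, 320, 434, 200 and 345 in controls (log2 1.15, adjusted p = 0.000117). The log2 fold change was 0.70 with phenylalanine (adjusted p = 0.0185), 0.61 with leucine (adjusted p = 0.0393) and 0.71 with valine restriction (adjusted p = 0.0173). With tryptophan it was -0.18 and not called, and the histidine, methionine and phenylalanine responses each differed from it by interaction (0.96, 1.33 and 0.88, adjusted p = 3.02e-05, 8.40e-05 and 0.00417).

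The call of MRPS6 ended in phenylalanine without restricted 4 (adjusted p = 0.0506) and in valine without branched-chain control 5 (adjusted p = 0.0643). In leucine it ended without any 1 library other than branched-chain control 1, at an adjusted p of up to 0.102. MRPS6 shares 273 exon bases on the same strand with SLC5A3, an inositol transporter gene that lies in its span. SLC5A3 moved in the other direction with histidine (1828 ± 126 in restricted and 2436 ± 113 in control libraries, log2 -0.42, adjusted p = 0.000437) and methionine restriction (log2 -0.63, adjusted p = 6.38e-05), and was not called in the other 5 comparisons.

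MRPS27, a pentatricopeptide repeat protein of the small subunit encoded on the minus strand at chr5:72219409-72320646 (GRCh38), was the member most often lower, also in 5 comparisons. In phenylalanine-restricted libraries it had 912, 864, 1007, 1027 and 919 normalised counts, against 2293, 2037, 1786, 2018 and 2015 in controls. This was 2.14-fold lower (log2 -1.10, SE 0.094, adjusted p = 2.38e-05), and its largest change. With tryptophan it had 1121, 1195, 1254, 1395 and 1218, against 2551, 2681, 2339, 2634 and 2353 in controls (log2 -1.02, adjusted p = 2.4e-08). It was also lower with methionine (log2 -0.77, adjusted p = 2.08e-07), histidine (-0.53, adjusted p = 3.42e-05) and valine restriction (-0.51, adjusted p = 0.0273). The valine call ended without valine restricted 3 or 5 or branched-chain control 4 or 5 (adjusted p up to 0.0962), and with equal totals (adjusted p = 0.0717). With leucine the log2 fold change was -0.32 and with isoleucine 0.04, neither called. The exons of MRPS27 overlap those of PTCD2 on the opposite strand by 190 bases, and PTCD2 was lower only in tryptophan of the 7 comparisons (log2 -0.80, adjusted p = 5.87e-05).

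MRPS2 and MRPL45 were each lower in 4 comparisons. MRPS2, which has a bacterial counterpart, had 515, 326, 464, 426 and 445 normalised counts in histidine-restricted libraries, against 628, 831, 760, 787 and 796 in controls (log2 -0.81, SE 0.119, adjusted p = 0.000222). Its log2 fold change was -0.80 with phenylalanine (adjusted p = 0.0101), -0.97 with tryptophan (adjusted p = 2.74e-08) and -0.83 with valine restriction (adjusted p = 0.02, 0.0514 without valine restricted 5). With methionine it was 0.03, and that response differed from the histidine, phenylalanine and tryptophan responses (interaction, adjusted p = 0.000748, 0.00593 and 2.84e-06). MRPL45, which lies at the exit of the tunnel and contacts the inner membrane, had 888, 839, 803, 832 and 890 in methionine-restricted libraries, against 1329, 1615, 1885, 1381 and 1685 in controls (log2 -0.88, adjusted p = 2.79e-06). It had -0.88 with phenylalanine (adjusted p = 0.0005) and -0.73 with tryptophan restriction (adjusted p = 1.9e-06). With histidine it was -0.20 (adjusted p = 0.036), a call that ended in 7 of the 10 fits without 1 library, those without histidine restricted 1, 2, 3 or 5 or histidine control 1, 2 or 5 (adjusted p up to 0.083), and with equal totals (0.0575). MRPL10, the protein that carries the stalk, was lower with methionine (log2 -0.56, adjusted p = 0.00342) and tryptophan restriction (-0.66, adjusted p = 0.000126), and with valine at -0.45 (adjusted p = 0.0336, up to 0.0822 without valine restricted 1, 3, 4 or 5 or branched-chain control 3 or 5, and 0.0545 with equal totals). Without phenylalanine restricted 2 and phenylalanine control 1, it was also lower with phenylalanine restriction (log2 -0.46, adjusted p = 0.00821).

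The narrowest ranges over the 7 comparisons were those of MRPS36, MRPL33, MRPL14 and MRPS5. MRPS36, the 2-oxoglutarate dehydrogenase component, had log2 fold changes of -0.28 to 0.24 and was called in none. Over all libraries, MRPL14 was called with tryptophan restriction only, of the 7 comparisons (lower, log2 -0.54, adjusted p = 0.000334), and MRPS5 with histidine (-0.49, adjusted p = 0.000689) and tryptophan (-0.64, adjusted p = 1.33e-05). Without phenylalanine restricted 2 and phenylalanine control 1, both were also lower with phenylalanine restriction (MRPL14 log2 -0.39, adjusted p = 0.0247, and MRPS5 -0.42, adjusted p = 0.00133). Estimated counts can be divided among similar sequences, and 34 of the 78 members have a processed copy with a name of its own in the annotation, up to 8 for MRPS21. Exon bases are shared with another gene by 41 members, by 16 on the same strand and by 29 on the opposite strand, and the sources used here do not state whether counting took account of strand. Those sharing on the same strand with a gene annotated as protein-coding include MRPL12 (701 bases, AC139530.2), MRPS24 (606, URGCP-MRPS24) and MRPS5 (550, ZNF514). MRPL33 (324, BABAM2) and MRPL28 (223, TMEM8A) are others.

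**Figure D4:**
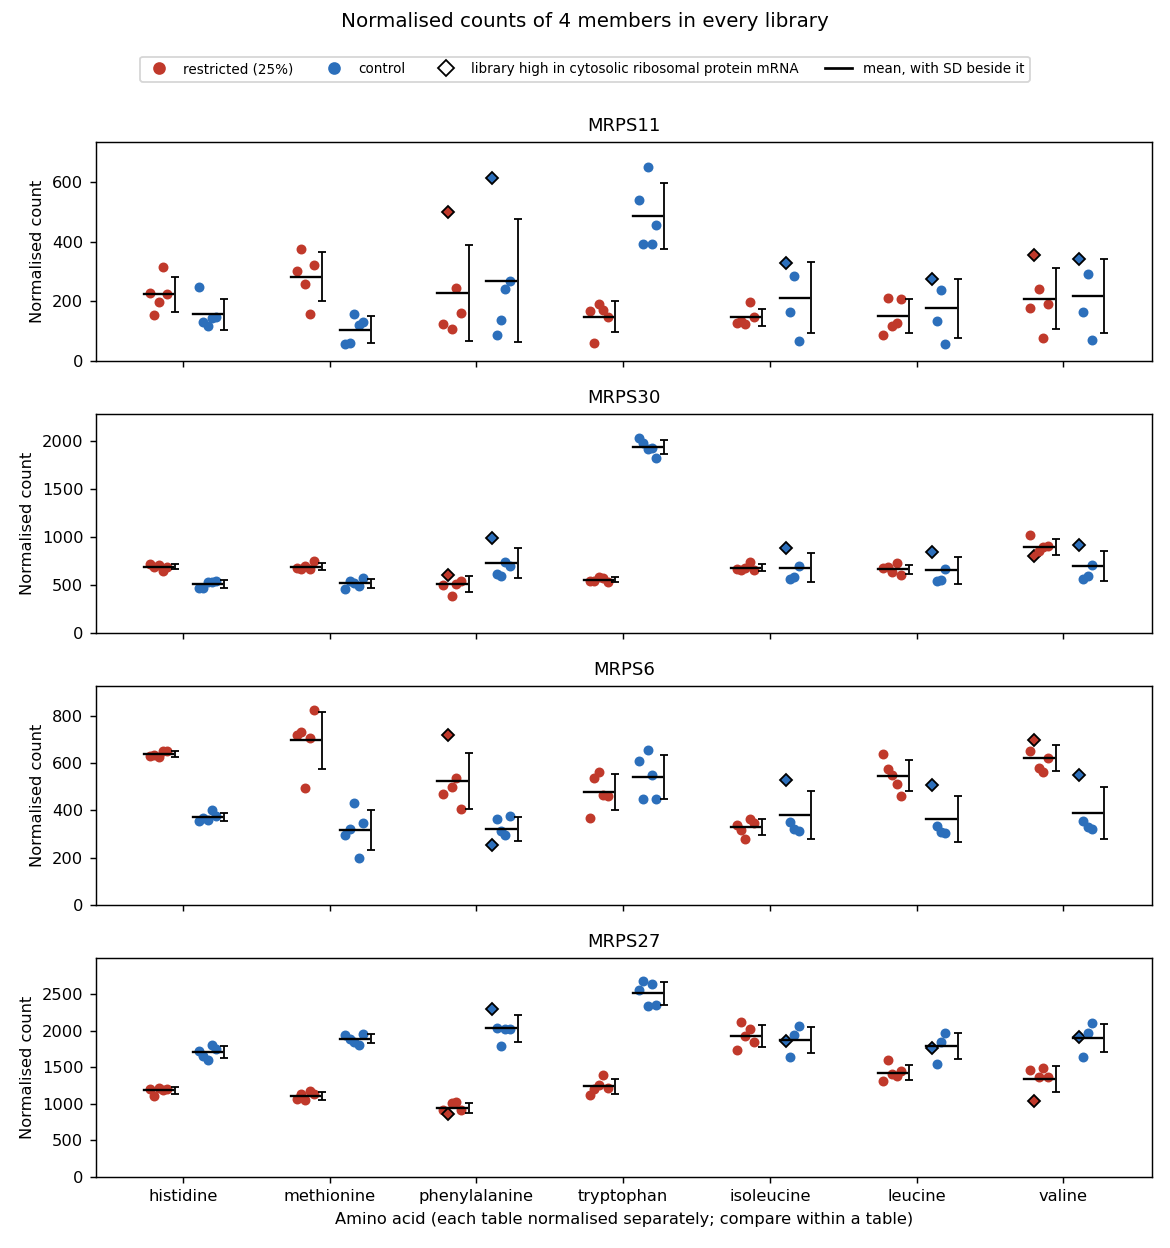
Normalised counts of MRPS11, MRPS30, MRPS6 and MRPS27 in every library, by amino acid, restricted (red) left of control (blue), with means and SD, and diamonds for libraries high in cytosolic ribosomal protein mRNA. MRPS30 is at 532 to 586 in tryptophan-restricted libraries and 1827 to 2029 in the tryptophan controls, and MRPS27 is lower in restricted libraries of 5 amino acids.

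Other genes of mitochondrial translation were counted from lists taken from textbook knowledge. Of 28 genes of mitoribosome assembly and rRNA modification, 0 were higher and 21 lower in tryptophan-restricted cells, and 9 were higher and 6 lower in methionine-restricted cells. The methionine shares of that list, 32.1% and 21.4%, were near the 27.8% and 25.4% of all tested genes. With tryptophan restriction 23.6% of all tested genes were higher and 27.7% lower. Of 20 mitochondrial aminoacyl-tRNA synthetase genes, counted with those of the glutaminyl-tRNA amidotransferase, 0 were higher and 16 lower with tryptophan restriction, and 8 were higher and 3 lower with methionine. In limma 1 gene of each of these lists was higher with tryptophan at an unadjusted p under 0.05, and with equal totals 2 assembly genes and 1 synthetase gene were called higher. Under equal totals 41.1% of all genes were higher and 16.8% lower with tryptophan restriction. Among 14 translation factors, 1 was higher and 7 were lower with tryptophan restriction (median log2 -0.17, turning to 0.08 with 4 higher and 5 lower under equal totals), and 7 were higher and 2 lower with methionine. GFM1, the elongation factor G1 of mitochondria, had a log2 fold change of -0.34 in tryptophan and 0.71 in methionine restriction, both called. The list of transcription and RNA maintenance, 17 genes, had 1 higher and 14 lower with tryptophan and 9 higher and 2 lower with methionine restriction, and its member TFAM, which packages mitochondrial DNA, was at -0.73 and 0.51, both called. Of 6 mitoribosomal proteins with other symbols, 0 were higher and 5 lower with tryptophan restriction (0 higher at an unadjusted p under 0.05 in limma), and 3 were higher and 1 lower with methionine. DAP3, a GTP-binding protein of the small subunit, was lower with tryptophan restriction (log2 -0.65).

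The respiratory chain and the cytosolic ribosome were counted beside them. With tryptophan restriction 23.6% of all tested genes were higher and 27.7% lower, and with equal totals 41.1% and 16.8%. With methionine restriction 27.8% were higher and 25.4% lower. Of 76 nuclear oxidative phosphorylation subunit genes, 2 were higher and 57 lower with tryptophan restriction, which became 11 higher and 32 lower with equal totals. With methionine restriction 10 of these 76 were higher and 35 lower. Of 77 cytosolic ribosomal protein genes, 0 were higher and 76 lower with methionine restriction, with a median log2 fold change of -1.27, and at an unadjusted p under 0.05 limma gave the same 0 and 76. With tryptophan restriction 6 were higher and 35 lower (median -0.13), which turned to 30 higher and 19 lower (median 0.11) with equal totals, so no direction held for that list. Cytosolic ribosomal protein mRNA summed to 34030 ± 2257 ppm in methionine-restricted and 75655 ± 6756 in control libraries, and to 50941 ± 1531 in tryptophan-restricted and 48881 ± 1742 in control libraries (SD, n = 5 each). The tryptophan controls had the lowest mean of the 5 control groups, the other control means lying between 70286 and 90562 ppm. Of the 13 mitochondrially encoded mRNAs, 8 were higher and 0 lower with methionine, 3 higher and 0 lower with tryptophan, and 6 higher and 0 lower with leucine restriction, with 1, 0 and 0 lower at an unadjusted p under 0.05 in limma. In the same order, 27.8%, 23.6% and 3.41% of all tested genes were higher, and 25.4%, 27.7% and 4.33% were lower. The tryptophan count of higher mRNAs was thus near the share of all genes. Differences between these lists and the members were not tested.

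Among regulators of nuclear genes for mitochondrial proteins, 9 of 10 listed genes passed the filter in the methionine and tryptophan tables. With tryptophan restriction 0 were higher and 6 lower (limma, with 0 higher also at an unadjusted p under 0.05, and 1 higher and 6 lower under equal totals), the largest fall being that of the coactivator PPRC1 (log2 -1.58), and with methionine 4 were higher and 1 lower. NRF1 mRNA was lower with tryptophan restriction (log2 -0.56) and not called with methionine (-0.09). GABPA was higher with methionine (0.38) and not called with tryptophan restriction (-0.14), and YY1 likewise (0.46 and -0.08). MYC was lower with both (-0.94 with methionine and -1.33 with tryptophan). All 18 members with a YY1 core in the start window were lower with tryptophan restriction, as were 30 of the 40 without it, and 14 of the 18 and 21 of the 40 were higher with methionine. With equal totals 15 of the 18 and 24 of the 40 were lower with tryptophan restriction, MRPL51, MRPS10 and MRPS24 being the 3 that changed. The 25 members with an ETS/GABP core had 19 lower with tryptophan and 16 higher with methionine, against 29 and 19 of the 33 without. These counts are a description, and no test was made of them.

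**Figure D5:**
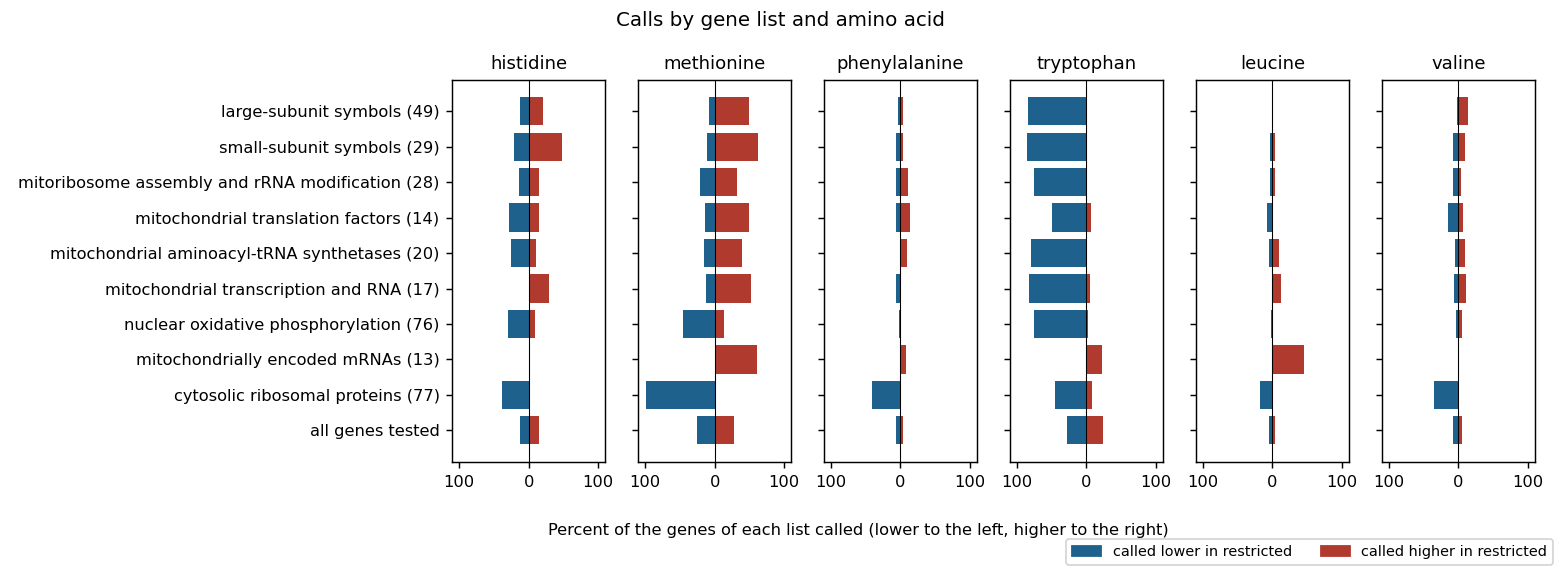
Percent of the genes of each list called lower (blue, to the left) or higher (red, to the right) in restricted cells, for 6 amino acids, with the number of genes in brackets. Isoleucine is left out because nothing was called. In methionine restriction 42 of the 78 members were higher while 76 of 77 cytosolic ribosomal protein genes were lower, and in tryptophan restriction both subunits were mostly lower.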

How the data were processed

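Bulk RNA-seq of 59 Jurkat libraries was analysed from 7 tables, 1 for each amino acid, in which the authors deposited normalised counts, a signal scaled between the libraries of a table. Tools named in the submitters' processing notes are kallisto 0.50.1, DESeq2 1.44.0 and FastQC 0.11.9, with build GRCh38. Per the labels, libraries were strand-specific, and no source used here says how strand entered the counting. The deposited normalised counts are not whole and were not used as reads, so no count model was fitted and read depth is unknown. From them log2(value + 1) was computed for genes with a table mean of at least 10, and restricted libraries were compared with the control libraries of the same table using limma 3.58.1 in R 4.3.3 (mean-variance trend, two-sided, Benjamini-Hochberg over all genes of the table, called under 0.05). Differences between 2 responses were tested as interactions for the 4 amino acids with controls of their own. The fits were tested on simulated data. No 2 libraries held identical values.

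The members and lists were chosen with earlier results of these data known. Named members were, for each comparison and subunit, the 3 largest changes among calls whose libraries did not overlap and whose higher group averaged at least 100, or with no call the 2 smallest p-values. Added were 6 members called most often in 1 direction, up to 6 called in both, the 4 widest and 4 narrowest ranges, and MRPL12, MRPS12, MRPL58, MRPS30, MRPS18A, MRPS18B, MRPS18C and MRPL44. Members named with the equal totals, the neighbours and the list genes named were chosen after their values were seen. Neighbours, positions and overlaps came from GENCODE release 29, and start windows from RefSeq GRCh38.p14. Alternatives were other pseudocounts (0.25 and 5), no filter, a mean of at least 100, trimmed mean of M values, equal library totals, a replicate block, the large subunit with MRPS30 and MRPS18A, and each library left out.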

Additional observations from a re-analysis of the deposited data

Results flagged for a closer look

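Of 98 groups of values checked, 13 had 1 library far from the others by Dixon's test, where chance gives about 1 in 20 of independent groups. These groups are not independent, since the branched-chain controls enter through several tables and a library high in many genes counts each time. Branched-chain control 1 accounts for 6 of the 13 and phenylalanine restricted 2 for 5. In methionine restricted 3 the small-subunit mRNAs summed to 1594 ppm of the library, below the rest of the group. In phenylalanine restricted 2 the large subunit summed to 3900 and the small subunit to 2054 ppm, above the rest, and MRPL45 (1247 normalised counts), MRPL22 (2177) and MRPL49 (2351) were high there too. In branched-chain control 1 the large subunit summed to 3325 ppm, and single values stood high for MRPL28 (1829 in the isoleucine and 1725 in the leucine table), MRPS24 (2835, leucine table), MRPS2 (1381, valine table) and MRPS6 (551, valine table). Histidine control 5 had 544 normalised counts of MRPL13, above the other controls.

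Responses to 2 amino acids differed in limma's interaction test. Of the 78 members, 35 were called for histidine minus methionine (34.4% of all genes), 11 for histidine minus phenylalanine (9.66%) and 62 for histidine minus tryptophan (43.3%). For methionine minus phenylalanine 21 were called (29.4% of all genes), for methionine minus tryptophan 67 (53.6%) and for phenylalanine minus tryptophan 42 (32.6%). The count for methionine minus phenylalanine was near the share of all genes. Between methionine and tryptophan the log2 difference was 3.26 for MRPS11, 2.56 for MRPL1, 2.22 for MRPS30 and 2.10 for MRPL20.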

How the results depend on the processing

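Most values kept their direction and their side of the threshold, and the main exceptions are given here or beside the result. MRPS10, MRPS14, MRPS15 and MRPS21, called lower with tryptophan restriction, had log2 fold changes of 0.063, 0.027, 0.013 and 0.056 with equal totals and were not called. With equal totals the medians of the large and small subunit were 0.39 and 0.54 for methionine and -0.35 and -0.40 for tryptophan, and calls numbered 6 for the small subunit with phenylalanine, 14 for the large with valine and 2 for the large with leucine. The histidine small-subunit median was 0.17 with MRPS30 and MRPS18A moved to the large subunit. For leucine, the large subunit had 1 call with a pseudocount of 5 and 2 with a mean of at least 100, and the small subunit had 1 with the trimmed mean of M values. Correlations of same-numbered samples ran from -0.19 to 0.19, and no label says that a number marks a shared origin, so the numbers were not taken as pairs. For valine all 4 were positive, at 0.036 to 0.185, and 2 of 4 libraries correlated best with their own number. With the replicate block, the large subunit had 2 calls with phenylalanine, and histidine minus phenylalanine had 7. No branched-chain control used here has the number 2, so there the block also left out restricted replicate 2. With it the small subunit had 1 call with leucine (MRPS6, higher), where that omission alone left 1 other member called (MRPS24, lower), and 18 members were called with valine, against 9 with that omission alone and 13 with all libraries. Without the libraries high in ribosomal protein mRNA, an alternative chosen after seeing the data, calls in the large and small subunit were 16 and 11 with phenylalanine and 25 and 15 with valine, 5 in the large subunit with leucine, 24 for histidine minus phenylalanine and 38 for methionine minus phenylalanine. With each library left out in turn, calls in the large and small subunit were 2 to 9 and 2 to 9 with phenylalanine, 0 to 5 and 0 to 3 with leucine, and 2 to 21 and 2 to 13 with valine. They were 7 to 18 for histidine minus phenylalanine and 17 to 34 for methionine minus phenylalanine. For differences between responses, the share of all genes called in these refits is not given. Medians of the large and small subunit turned to -0.09 and -0.11 without phenylalanine restricted 2, and without branched-chain control 1 to 0.07 and 0.06 with isoleucine and, for the large subunit, to 0.14 with leucine. The most calls in phenylalanine came without phenylalanine restricted 2, and in leucine and valine without branched-chain control 1. The cause was not tested. Depth is unknown, so no counting error is given.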
